A study of Canis lupus familiaris with 14 samples.

Results

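The Akt and mTOR complex genes are 9 genes of 1 growth signalling cascade, and 14 GeneChip Canine Genome V2.0 arrays, each hybridised with the RNA of 1 canine lymph node, give their transcript levels in lymphoma and in normal nodes. The members are PDPK1, AKT1, AKT2, MTOR, RPTOR, RICTOR, RHEB, RPS6KB1 and GSK3B. They were found as every probe set whose annotation carries exactly 1 of these symbols. This gave 18 probe sets for 9 genes, out of 29254 probe sets and 15115 genes with a single symbol on the array.

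Of the 14 arrays, 10 are B- or T-cell lymphomas, needle aspirates of companion dogs seen at 3 clinics, taken before the dogs received an investigational inhibitor of PI3K, the kinase that acts directly above the members. The label B-cell lymphoma is carried by 7 of them (FS21, NE41, NE42, RB03, RB16, RB07 and RB10) and the label T-cell lymphoma by 3 (FS22, FS25 and NE45). The dogs FS21, FS22, RB07 and FS25 had relapsed after chemotherapy. The other 4 arrays are normal nodes (63, 2970, 3024l and 3024r) of 3 disease-free Beagles of 1 colony, and 3024l and 3024r are 2 nodes of the same dog. The study letters the arrays, and its expression profiles split the lymphomas into a class of 4, lettered K-N (RB07, RB10, FS25 and NE45), and a class of 6, lettered E-J (FS21, NE41, NE42, RB03, RB16 and FS22). Since the classes were drawn from these same profiles, values are given by class as a description. No test was set up between classes, but the B-cell against T-cell comparison with 3 arrays left out, given below, falls between them. Of the 4 dogs of class K-N, 3 were Boxers, whereas class E-J held 1 Boxer cross (NE41) and 1 Beagle (FS22). Breed, home and clinic cannot be told apart from disease here, and which arrays were run together is not given in the sources used here.

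As background, growth factor and antigen receptors activate PI3K, whose lipid product brings both PDPK1 and Akt to the plasma membrane. PDPK1 phosphorylates Akt in its activation loop, and mTOR complex 2, built on MTOR and RICTOR, phosphorylates it near the carboxyl end. Akt inhibits GSK3B and the TSC complex, TSC holds back the small GTPase RHEB, and RHEB bound to GTP activates mTOR complex 1, built on MTOR and RPTOR, which phosphorylates the S6 kinase RPS6KB1. The cascade runs by phosphorylation, which the arrays do not measure. In lymphocytes it sets cell size, metabolism and division after antigen contact, and it is a drug target in lymphoma.

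Signals, the linear output of the MAS 5.0 algorithm, were scaled to the same trimmed mean on every array, and differences are on the log2 scale. A signal of 100 was taken as the limit under which a probe set is dim. Between 47.2% and 55.7% of all probe sets reached it on an array. The ratio of the 3' to the 5' GAPDH control probe set, which rises as RNA is shorter, was 23.2 on 3024l and 3.30 to 8.94 on the other 13 arrays. The study states that all of these RNA samples passed its checks of RNA integrity, and what raised the ratio on 3024l was not tested. Summed signals of 7 pan-B-cell markers were 152 to 2508 in class K-N, 11156 to 29500 in class E-J and 5552 to 9073 in the normal nodes. Those of 10 T-cell markers were 51867 to 72432 in class K-N, 2923 to 15748 in class E-J and 14802 to 33942 in the normal nodes. RB07 and RB10 thus go against their label, with CD3E, which carries the signal of the T-cell receptor, at a log2 signal of 12.11 in RB07 and 12.54 in RB10, and CD79A, which does so for the B-cell receptor, at 8.06 in RB07 and 8.11 in RB10. FS22, labelled T-cell, had CD79A at 10.09, inside the range of the normal nodes (9.75 to 10.55), and CD3E at 8.80, below all of them. Not every marker went the same way. The B-cell marker MS4A1 was at 4.90 in FS22, below the normal nodes (9.88 to 11.17), and at 10.40 in RB10, inside their range. The B-cell markers CD79B, CD22 and CD72 lay above every normal node in FS22, at 10.47, 12.44 and 11.41. In RB10 they lay below every normal node, at 7.39, 8.91 and 7.12. Of the T-cell markers, CD3D (11.93), CD6, LCK and LAT lay inside the normal range in FS22, the last of these and CD6 and LCK only through the low value of 3024l. CD3G, CD2, CD5, CD28 and TRAT1, like CD3E, lay below every normal node in FS22. In such bulk aspirates fewer cells of a type and less RNA per cell cannot be told apart.

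Of the 18 probe sets, 9, from 6 members, reached a signal of 100 on all 14 arrays. AKT1, AKT2 and RPTOR had 1 probe set each, all of them dim on most arrays. MTOR had 7 probe sets, of which 3 were bright on all arrays, and the other 4 reached 100 on fewer than 6 arrays, among them 2 that never did (Cfa.7855.1.A1_s_at and Cfa.8305.1.A1_at). A dim signal carries little information on level, so the members divide into 6 that can be described array by array and 3 that mostly cannot.

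**Figure D1:**
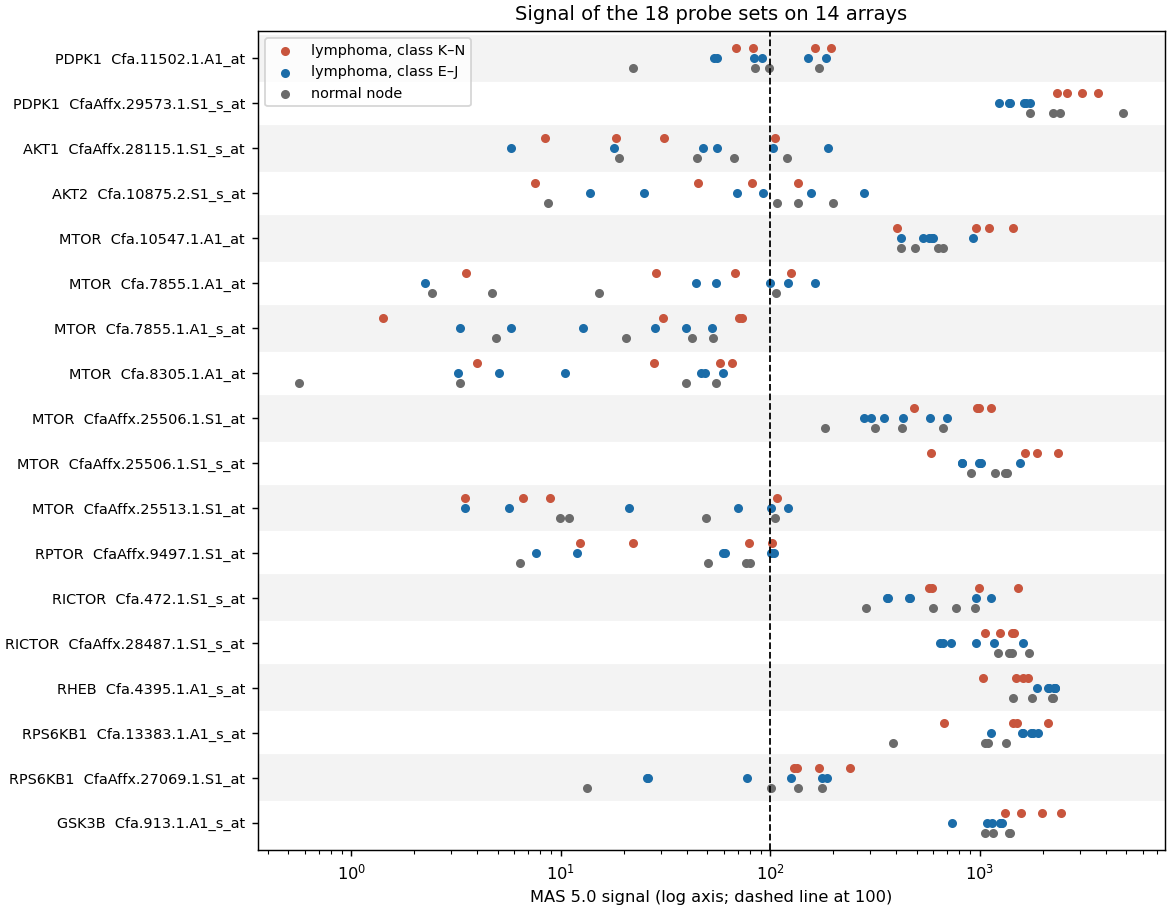
MAS 5.0 signal (log axis) of each of the 18 probe sets on the 14 arrays, 1 point per array, with the 4 lymphomas of class K-N above the 6 of class E-J and the 4 normal nodes in each band, and a dashed line at 100. The 9 probe sets that lie to the right of the line on every array belong to PDPK1, MTOR, RICTOR, RHEB, RPS6KB1 and GSK3B, while AKT1, AKT2, RPTOR and 4 of the 7 MTOR probe sets straddle the line or lie to its left.

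PDPK1 (Entrez gene 479875) encodes the kinase PDK1, which activates Akt and other kinases of its family. On its bright probe set, CfaAffx.29573.1.S1_s_at, the signal in class K-N was 2349 in RB07, 2602 in RB10, 3089 in FS25 and 3658 in NE45, and in class E-J it was 1238 at the lowest, 1513 at the median and 1744 at the highest. The normal nodes had 1743 in 63, 2420.5 in 2970, 4848 in 3024l and 2229 in 3024r. All 4 lymphomas of class K-N lay above all 6 of class E-J, and 5 of the 10 lymphomas, all of them in class E-J, lay below every normal node, whereas 2 did with each array centred on its median and 6 under quantile normalization. How many of all probe sets have as many lymphomas below every normal node was not counted. The mean log2 signal was 11.49 ± 0.28 in class K-N (SD, n = 4), 10.55 ± 0.19 in class E-J (SD, n = 6) and 11.23 ± 0.46 in normal dogs (SD, n = 3). The difference of K-N minus E-J was 0.94. Among all probe sets tested, 9.72% separated the 2 classes without overlap, 4.32% with K-N higher. The 2 nodes of dog 3024 differed by 1.12 on the log2 scale, more than the classes did. With each array centred on its median, 3 of the 4 arrays of class K-N lay above class E-J. The second PDPK1 probe set, Cfa.11502.1.A1_at, was dim, at 68.8 to 194 in class K-N, 54.2 to 184 in class E-J and 22.1 to 171 in the normal nodes, and these ranges overlap.

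AKT1 (490878) and AKT2 (449021) encode 2 forms of the kinase Akt, which carries the PI3K signal to metabolism, survival and growth. The AKT1 probe set, CfaAffx.28115.1.S1_s_at, gave 105 in RB07, 31.0 in RB10, 18.4 in FS25 and 8.41 in NE45 in class K-N. In class E-J it gave 103 in FS21, 18.0 in NE41, 47.9 in NE42, 189 in RB03, 55.5 in RB16 and 5.80 in FS22, and in the normal nodes 120.0 in 63, 18.9 in 2970, 44.9 in 3024l and 66.9 in 3024r. It reached 100 on 4 arrays only, 1 of them a normal node, and each group held both a value over 100 and values under 50. AKT2, on Cfa.10875.2.S1_s_at, had 7.51 in RB07, 45.3 in RB10, 82.2 in FS25 and 136 in NE45 in class K-N. Its signal was 279 in FS21, 13.8 in NE41, 69.1 in NE42, 156 in RB03, 25.1 in RB16 and 92.7 in FS22 in class E-J. The normal nodes gave 108 in 63, 199.6 in 2970, 8.67 in 3024l and 136 in 3024r, and the 2 nodes of dog 3024 thus differed by 3.97 on the log2 scale. At these signals no order of the groups could be read for either Akt gene.

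MTOR (478232) encodes the kinase at the centre of both mTOR complexes. On Cfa.10547.1.A1_at class K-N had 405 in RB07, 1108 in RB10, 1445 in FS25 and 963 in NE45, and class E-J had 421 at the lowest, 580.4 at the median and 927 at the highest. The normal nodes had 419 in 63, 634 in 2970, 492 in 3024l and 669 in 3024r on this probe set. Of the 4 lymphomas of class K-N, 3 were higher than every E-J and normal array, and RB07 was lower than all of them. The share of all probe sets with such a pattern was not counted. The same 3 arrays, RB10, FS25 and NE45, were the highest of all 14 on the other 2 bright probe sets. On CfaAffx.25506.1.S1_at they had 973, 990.4 and 1127, against 281 to 697 in class E-J and 182 to 668 in the normal nodes, and RB07 had 484. On CfaAffx.25506.1.S1_s_at they had 1648, 1872 and 2370.2, against 826 to 1555 in class E-J and 913 to 1345 in the normal nodes, and RB07 had 588. The mean log2 signal over the 3 bright probe sets was 10.01 ± 0.73 in class K-N (SD, n = 4), 9.30 ± 0.36 in class E-J (SD, n = 6) and 9.31 ± 0.34 in normal dogs (SD, n = 3). In class E-J the mean thus lay close to that of normal dogs, and RB03, at 1002 on the linear scale, was the one E-J array above all normal nodes.

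RPTOR (608378) encodes Raptor, the subunit that brings substrates to mTOR complex 1, and its probe set CfaAffx.9497.1.S1_at was dim. It reached 100 on 3 arrays, FS21 with 104, FS22 with 101 and NE45 with 102, and on no normal node, where it was 6.42 to 80.0. The other lymphomas lay between 7.63 in RB03 and 79.0 in FS25. RICTOR (479356) encodes the scaffold of mTOR complex 2, and both of its probe sets were bright. On CfaAffx.28487.1.S1_s_at the signal in class K-N was 1252 in RB07, 1454 in RB10, 1057 in FS25 and 1429 in NE45, and in class E-J 648 at the lowest, 848 at the median and 1603 at the highest. The normal nodes had 1375 in 63, 1428 in 2970, 1228 in 3024l and 1718 in 3024r. On this probe set 6 of the 10 lymphomas were below every normal node and none was above all of them, whereas with each array centred on its median 7 were below and 3 above. The share of all probe sets with as many lymphomas below every normal node was not counted. On the other probe set, Cfa.472.1.S1_s_at, the values were 573 to 1515 in class K-N, 362 to 1137 in class E-J and 286 to 949 in the normal nodes, and no lymphoma was below every normal node. The lowest normal value there, 286, came from 3024l, and its partner 3024r had 597.

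RHEB (475545) encodes the small GTPase that switches on mTOR complex 1. Its probe set, Cfa.4395.1.A1_s_at, was bright, with 1039.9 in RB07, 1692 in RB10, 1618 in FS25 and 1484 in NE45 in class K-N and 1867 at the lowest, 2203 at the median and 2291 at the highest in class E-J. The normal nodes had 1780.3 in 63, 2217 in 2970, 1445 in 3024l and 2249 in 3024r. All 4 lymphomas of class K-N were below all 6 of class E-J, a direction opposite to that of PDPK1 and GSK3B, and RB07 was the lowest of the 14 arrays. The mean log2 signal was 10.49 ± 0.32 in class K-N (SD, n = 4), 11.07 ± 0.11 in class E-J (SD, n = 6) and 10.91 ± 0.18 in normal dogs (SD, n = 3). K-N minus E-J was -0.59, and 5.40% of all probe sets tested separated the classes with K-N lower. With each array centred on its median, 3 of the 4 arrays of class K-N lay below class E-J.

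RPS6KB1 (480580) encodes the S6 kinase, the substrate through which mTOR complex 1 raises protein synthesis. The bright probe set, Cfa.13383.1.A1_s_at, had 675 in RB07, 2124 in RB10, 1503 in FS25 and 1435 in NE45 in class K-N and 1132 at the lowest, 1688 at the median and 1898 at the highest in class E-J. The normal nodes had 1330.2 in 63, 1095 in 2970, 385 in 3024l and 1061 in 3024r. Of the 10 lymphomas, 8 were above all 4 normal nodes, the exceptions being RB03 at 1132 and RB07, and 6.98% of all probe sets tested had 8 or more lymphomas above all normal nodes. The lowest value of the 14 belonged to 3024l, the array with the high GAPDH ratio. The part of that ratio in the value was not tested. The other probe set, CfaAffx.27069.1.S1_at, was at 129.8 to 241 in class K-N, 25.8 to 186 in class E-J and 13.3 to 177 in the normal nodes, with all 4 arrays of class K-N over 100.

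GSK3B (478575) encodes a kinase that Akt switches off and that marks cyclins, MYC and beta-catenin for destruction. Its single probe set, Cfa.913.1.A1_s_at, was bright, with 1319 in RB07, 2451 in RB10, 1576 in FS25 and 1989 in NE45 in class K-N and 737 at the lowest, 1200.2 at the median and 1282 at the highest in class E-J. The normal nodes had 1372 in 63, 1156 in 2970, 1057 in 3024l and 1390.2 in 3024r. Class K-N lay above class E-J with no overlap, although RB07 exceeded the highest E-J array, RB03 at 1282, by a small margin and lay within the normal range. The mean log2 signal was 10.80 ± 0.39 in class K-N (SD, n = 4), 10.12 ± 0.30 in class E-J (SD, n = 6) and 10.28 ± 0.13 in normal dogs (SD, n = 3), and K-N minus E-J was 0.69. With each array centred on its median, 3 of the 4 arrays of class K-N were above class E-J. Of the 16 member probe sets that passed the filter on dim values 3 separated the classes, beside 9.72% of all such probe sets, those of PDPK1 and GSK3B with K-N higher and that of RHEB with K-N lower, and with centring none of the 3 separated them fully. The summed signal of 8 cell division markers was 13383 to 19736 in class K-N, 5842 to 13650 in class E-J and 3769 to 6288 in the normal nodes. TOP2A, the brightest of them, had a log2 signal of 13.26 to 13.76 in class K-N and 11.84 to 12.97 in class E-J. BUB1B did not follow, with 8.41 to 9.51 in class K-N and 8.88 to 10.05 in class E-J. Nor did KIF18A, with 7.48 to 9.10 in class K-N and 7.94 to 8.85 in class E-J. The part of cell division and of cell type in the class values was not tested.

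**Figure D2:**
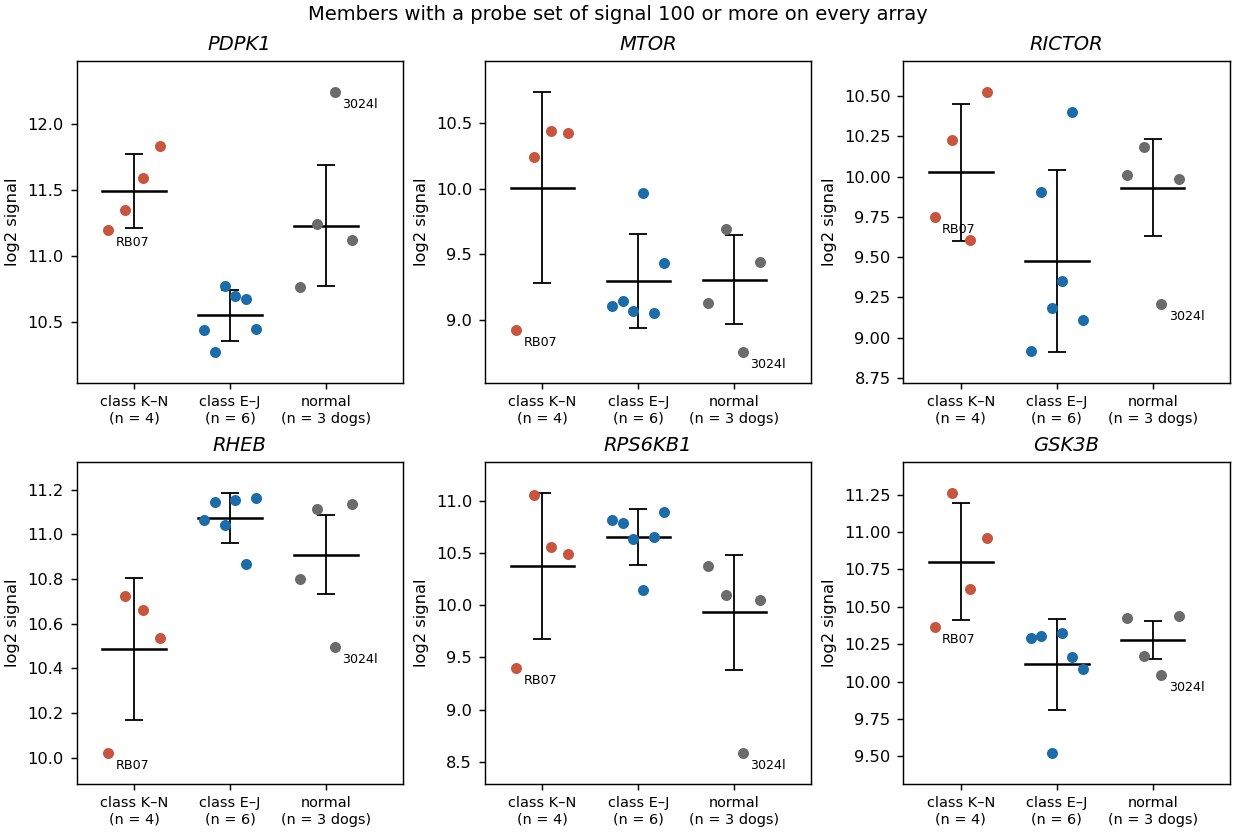
Log2 signal (y axis, a different range in each panel) of the 6 members with a bright probe set, as the mean over their bright probe sets, with 1 point per array and, for each group, the mean (long line) and SD (bar), the normal mean being over 3 dogs with 3024l and 3024r averaged. PDPK1 and GSK3B lie higher and RHEB lower in all 4 arrays of class K-N than in the 6 of class E-J, MTOR is high in 3 of the 4 with RB07 the lowest of the class, and 3024l has the highest PDPK1 and the lowest RPS6KB1 value of the 14 arrays.

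The first comparison asked whether transcript levels of the cascade differ between lymphoma and normal node, with the 10 lymphomas set against 3 normal dogs (3024l and 3024r averaged) and the log2 signals of a gene averaged over its probe sets. None of the 9 members passed an adjusted p of 0.05 in limma, none had an unadjusted p under 0.05, and none was called by the methods' t-test, which lets the spread differ between groups, at an adjusted p of 0.05 or of 0.2, where that test called 25.1% of all genes at 0.2. Over all 9400 genes tested, 3.63% passed, 1.03% higher and 2.60% lower in lymphoma, and 18.7% had an unadjusted p under 0.05. RPS6KB1 had the lowest adjusted p of the members, with a log2 difference of 0.65 (standard error 0.44, 95% interval -0.30 to 1.60, adjusted p = 0.462). RHEB and GSK3B had the narrowest intervals. The difference of RHEB was -0.07 (95% interval -0.63 to 0.49, adjusted p = 0.916), and that of GSK3B was 0.11 (95% interval -0.55 to 0.77, adjusted p = 0.889). These intervals do not reach 1 on the log2 scale, whereas those of AKT1, AKT2 and RPTOR run from below -1 to above 1, and RPTOR passed the filter through lymphomas alone. The median over the 9 members was -0.06, against -0.03 over all genes tested. Of the members' 18 probe sets 16 passed the filter on dim values, and none of the 16 was called, where 2.56% of 19592 probe sets were, nor did any have an unadjusted p under 0.05, where 18.1% did. The lowest adjusted p, 0.366, belonged to the bright RPS6KB1 probe set, with a difference of 0.61 (95% interval -0.12 to 1.34).

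Probe sets of 1 gene were compared with each other in the same lymphomas and normal dogs, over 7 pairs from 4 members, by an exact two-sided permutation test over 286 assignments (smallest possible p = 0.0035). None of the 7 pairs differed after adjustment. The lowest p was for MTOR, where CfaAffx.25506.1.S1_s_at had a log2 difference of -0.07 and Cfa.10547.1.A1_at one of 0.38, apart by -0.45 (exact p = 0.035, adjusted p = 0.245). The 95% interval of the difference included 0 on both MTOR probe sets.

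The second comparison set the study's own 4 B-cell lymphomas, NE42, FS21, RB03 and RB16, against the nodes 63, 2970 and 3024r. Which node of dog 3024 the study used is not given in the sources used here, and 3024r was taken. The lymphomas were chosen in part for lacking a T-cell profile, and both these lymphomas and the normal dogs are also in the first comparison. In limma none of the 8 members tested passed, none had an unadjusted p under 0.05, and none was called by the methods' t-test, which called 8 of all genes at an adjusted p of 0.05 and 28.5% at 0.2. Among 8295 genes 10.9% passed, 3.48% higher and 7.39% lower, and 30.0% had an unadjusted p under 0.05. RPTOR was under the filter. RICTOR, the scaffold of mTOR complex 2, had the lowest adjusted p (log2 difference -0.60, standard error 0.37, adjusted p = 0.311). On CfaAffx.28487.1.S1_s_at the lymphomas had 648 in FS21, 731 in NE42, 1166 in RB03 and 1603 in RB16, against, in the normal nodes, 1375 in 63, 1428 in 2970 and 1718 in 3024r. RB16 alone among the 4 lay inside the normal range. The other differences were 0.67 for AKT1, -0.62 for AKT2, 0.40 for RPS6KB1, -0.27 for GSK3B, -0.26 for MTOR, -0.22 for PDPK1 and 0.02 for RHEB. Their median with RICTOR was -0.24, against -0.06 over all genes tested. With 3024l in place of 3024r the difference was 0.71 for AKT2 and 0.31 for MTOR, both turned. At probe set level 15 were tested in limma and none was called or had an unadjusted p under 0.05, where 8.04% of all probe sets were called and 28.7% had such a p.

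**Figure D3:**
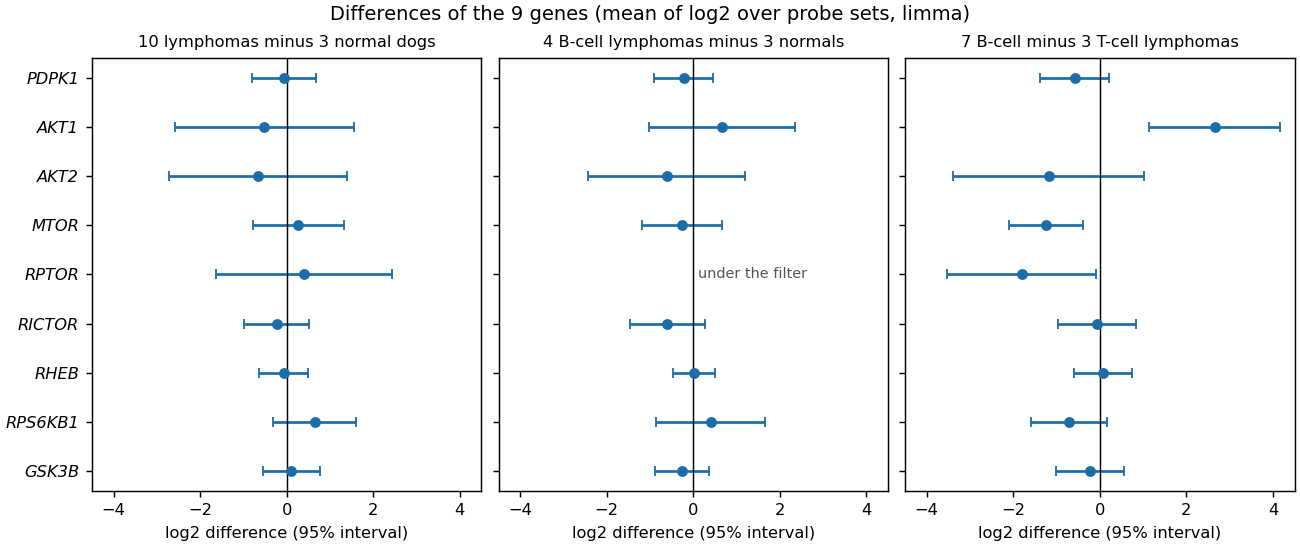
Log2 difference (x axis) of each of the 9 members with its 95% interval from limma, in 3 comparisons of lymphomas with normal dogs or of B-cell with T-cell lymphomas, members ordered along the cascade. In the 2 comparisons with normal dogs every interval includes 0, and those of AKT1, AKT2 and, where it was tested, RPTOR are the widest, while in B-cell minus T-cell lymphoma the intervals of AKT1, MTOR and RPTOR, which are not adjusted, lie off 0, AKT1 having passed the filter through B-cell arrays alone.

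The third comparison set the 7 lymphomas labelled B-cell against the 3 labelled T-cell. No gene of the 8567 tested passed in limma or in the methods' t-test (0% called, for that test also at an adjusted p of 0.2), and 3.65% had an unadjusted p under 0.05 in limma, among them RPTOR, with a difference of -1.81 (limma unadjusted p = 0.0416, adjusted p = 0.956), and MTOR, with one of -1.24 (limma unadjusted p = 0.00813, adjusted p = 0.956). AKT1 reached 100 in FS21, RB03 and RB07 alone, all labelled B-cell, and so passed the filter only through the group in which it was high. Its difference of 2.65 (adjusted p = 0.956) is therefore given as a description. All 3 of its signals on the T-cell arrays were under 100 (5.80 in FS22, 18.4 in FS25 and 8.41 in NE45), and the difference was 0.15 with signals under 100 raised to 100. That of RPTOR was -0.01 on the same footing. For MTOR the gene means of the B-cell and T-cell groups did not overlap, as for 0.875% of all genes, but over the bright MTOR probe sets they did, with a difference of -0.74 (limma unadjusted p = 0.0646), since RB03 and RB10 had 1002 and 1211 and FS22 had 693. Without RB07, RB10 and FS22, whose profiles go mostly against their labels, no member passed, where 3.39% of 7867 genes did. The difference was -1.22 for MTOR and -1.03 for PDPK1. This left FS21, NE41, NE42, RB03 and RB16, all of class E-J, against FS25 and NE45, both of class K-N. The run thus set the classes against each other, and these were drawn from the same profiles. Its values are therefore a description and cannot test cell type. RB07, RB10 and FS22 were left out after their values were seen. Of the 16 member probe sets tested in limma none was called, and 3.28% of all probe sets had an unadjusted p under 0.05, among them that of RPTOR and, through the filter as described, that of AKT1.

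Around the members stand 6 groups of genes that build, regulate or carry out mTOR and Akt signalling, and of their genes tested 2 of 62 (3.23%) passed in limma in all lymphomas and 4 of 55 (7.27%) in the B-cell set, beside the 3.63% and 10.9% of all genes given above. In all lymphomas AKT1S1, which did not pass, is counted both among the subunits and among the Akt substrates. In all lymphomas against normal dogs, 1 of 5 tested genes among other subunits and assembly genes of the mTOR complexes fell, and 1 of 16 nutrient and stress regulators rose. None passed among 5 relatives, phosphatases and restrainers of Akt and 14 genes of the TSC, Rag and Ragulator group. Nor did any of 12 genes of the group of mTOR complex 1 substrates and translation genes, or of 10 substrates of Akt. The Akt substrates had the lowest median difference of the groups in this comparison, -0.76, against -0.03 over all genes. In the B-cell set none passed among the 4 other subunits, the 4 relatives, phosphatases and restrainers of Akt and the 8 Akt substrates tested. There the lowest median was that of the 4 relatives, phosphatases and restrainers, -1.06, and that of the Akt substrates was -0.64, against -0.06 over all genes. There 1 of 13 genes of the TSC, Rag and Ragulator group rose and 1 fell, 1 of 15 nutrient and stress regulators rose, and 1 of 11 genes of the substrate and translation group rose.

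DEPTOR, an mTOR subunit that inhibits both complexes, was the gene that fell in all lymphomas. On its bright probe set, CfaAffx.2242.1.S1_at, the 10 lymphomas had 7.40 at the lowest, 138 at the median and 484 at the highest, against, in the normal nodes, 1123 in 63, 1705 in 2970, 1420.5 in 3024l and 1773 in 3024r. Every lymphoma was below every normal node there, and the gene means did not overlap either, as for 7.60% of all genes tested. The gene's log2 difference over 2 probe sets was -2.98 (standard error 0.76, adjusted p = 0.0486), and with signals under 100 raised to 100 it was -1.88, a 3.68-fold lower level. The call stands close to the threshold. It remained without RB03 or without NE45 and was lost without any 1 of the other 11 dogs (adjusted p 0.0523 to 0.235). Over 11 other settings it was kept in 6 and lost with no filter on dim genes (0.0888), quantile normalization (0.0560), centring (0.0628), the brightest probe set (0.0622) and 3024l alone for its dog (0.0631). In the same comparison 5 of 9 stromal and endothelial markers and 7 of 10 myeloid markers fell, with medians of -2.17 and -2.71. The summed signal of 11 stromal and endothelial markers was 2643 to 7754 in class K-N and 1668 to 4992 in class E-J, against 13331 to 18440 in the normal nodes. The part of these cells in the DEPTOR value was not tested.

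PRKAA2, a catalytic subunit of AMPK, the energy sensor that restrains mTOR complex 1, rose in both comparisons, which share normal dogs and the lymphomas of the B-cell set. Its single probe set, CfaAffx.28972.1.S1_at, gave 133 at the lowest, 358 at the median and 1157 at the highest in the 10 lymphomas, against, in the normal nodes, 49.0 in 63, 132 in 2970, 44.9 in 3024l and 142 in 3024r. Of the lymphomas, 9 were above all normal nodes, and RB07 had 133, inside their range. On 6.98% of all probe sets tested, at least 8 of the 10 lymphomas were above all normal nodes. The log2 difference was 2.34 in all lymphomas (standard error 0.56, adjusted p = 0.0393) and 1.80 in the B-cell set (adjusted p = 0.0445). With signals under 100 raised to 100 the level was 3.50-fold higher in all lymphomas and 2.75-fold higher in the B-cell set. The first call was lost without NE42, without FS22 or without any 1 of the 3 normal dogs (adjusted p 0.0548 to 0.168), and the second without any 1 of its 7 arrays (adjusted p 0.0595 to 0.124). The first was also lost in 3 of 11 other settings, with no filter on dim genes (0.0762), the methods' t-test (0.0693) and 3024r alone for its dog (0.0555), and the second in 4 of 12, with no filter (0.124), that test (0.185), all 7 B-cell lymphomas (0.0849) and all 14 arrays in 1 fit (0.137).

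RRAGD, a Rag GTPase that recruits mTOR complex 1 to the lysosome when amino acids are present, fell in the B-cell set (log2 difference over 2 probe sets -2.96, standard error 0.58, adjusted p = 0.0237), and with signals under 100 raised to 100 the difference was -1.98, a 3.93-fold lower level. On its bright probe set, Cfa.16786.1.S1_at, the set had 372 in FS21, 949 in NE42, 1225 in RB03 and 199.8 in RB16, against, in the normal nodes, 2454 in 63, 3087 in 2970 and 2668 in 3024r. In class K-N it was far higher, with 7681 in RB07, 8345 in RB10, 17962 in FS25 and 10741 in NE45, so that all of class K-N lay above the normal nodes and all of class E-J, at 199.8 to 1225, below them. Among all probe sets tested, 4.32% separated the classes with K-N higher. The share that also had the normal nodes between the classes was not counted. Across all lymphomas the difference was -1.14 and did not pass (adjusted p = 0.719), and with all 7 B-cell lymphomas, RB07 and RB10 among them, in place of the set it was -1.99 (adjusted p = 0.417). The summed T-cell markers given above were likewise highest in class K-N, and 6 of 10 of them fell in the B-cell set with a median of -2.71, and their part in the RRAGD value was not tested. Leaving out any 1 of the 3 normal nodes also ended the call (adjusted p 0.0828 to 0.123), and over 12 other settings it was kept in 6 and lost with no filter on dim genes (0.0737), the brightest probe set (0.0549), the methods' t-test (0.0940), 3024l in place of 3024r (0.0588), all 7 B-cell lymphomas and all 14 arrays in 1 fit (0.209).

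LAMTOR2, a Ragulator subunit that anchors the Rag GTPases on the lysosome, and EIF4B, a translation factor that the S6 kinase phosphorylates, rose in the B-cell set. LAMTOR2 on Cfa.18479.1.S1_a_at had 6301 in FS21, 6813 in NE42, 6815 in RB03 and 4829.6 in RB16, against, in the normal nodes, 2218 in 63, 2435 in 2970 and 2573 in 3024r. Its difference was 1.14 (standard error 0.25, adjusted p = 0.0303), a 2.21-fold higher level. With 1 array left out the call remained without RB03 or without RB16 and was lost without any of the other 5, and over 12 other settings it was kept in 7 and lost with no filter on dim genes, with the brightest probe set, with the methods' t-test, with all 7 B-cell lymphomas and with all 14 arrays in 1 fit (adjusted p 0.0750 to 0.128). EIF4B on its brightest probe set, CfaAffx.11559.1.S1_s_at, had 26942 in FS21, 25587 in NE42, 21744 in RB03 and 15561 in RB16, against, in the normal nodes, 15457 in 63, 17036 in 2970 and 13758 in 3024r, and RB16 lay inside the normal range. The gene's difference over 3 probe sets was 0.93 (standard error 0.23, adjusted p = 0.0450), and with signals under 100 raised to 100 the level was 1.79-fold higher. With 1 array left out the call remained without RB16 alone, and over 12 other settings it was kept in 4, the 2 other scalings and the 2 that lift dim signals, and lost in 8 (adjusted p 0.0785 to 0.451).

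**Figure D4:**
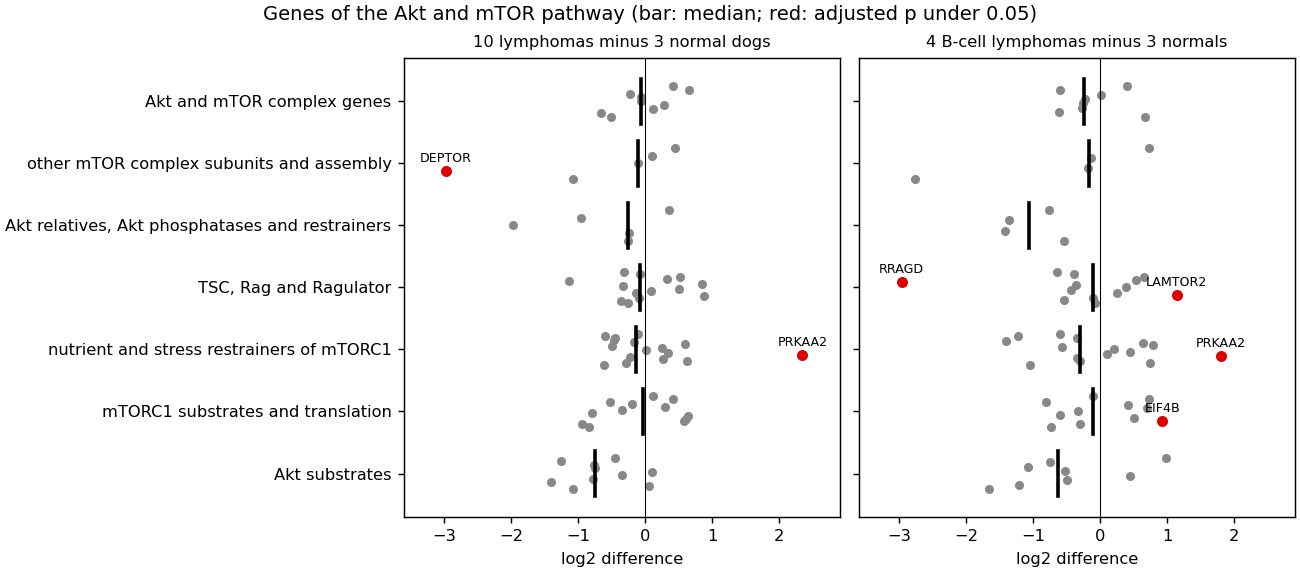
Log2 difference (x axis) of each tested gene of the members and of 6 surrounding groups, 1 point per gene, with the group median as a vertical bar and genes of adjusted p under 0.05 in red, for all 10 lymphomas minus 3 normal dogs (left) and the 4 lymphomas of the B-cell set minus 3 normals (right). DEPTOR at -2.98 and PRKAA2 at 2.34 are the red points on the left, and RRAGD at -2.96, LAMTOR2 at 1.14, PRKAA2 at 1.80 and EIF4B at 0.93 those on the right, with no member among them.

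To find the genes most like each member, group means of the normal nodes and both classes were taken off and Pearson's r was computed over the 14 arrays, which share their scaling and amplification, among 6178 genes of signal 100 or more on 11 or more arrays. Among the members that were bright themselves, PDPK1 was most like PDCD4 (0.93) and SLC25A24 (0.92), RICTOR like SCAF11 (0.93) and CPEB4 (0.88), RHEB like IKBIP (0.94) and CLPTM1L (0.92), GSK3B like ZSCAN29 (0.89) and FBXO7 (0.88), and RPS6KB1 like DPP7 (0.81) and UBE2K (0.77). MTOR, averaged over all 7 of its probe sets, was most like PPP1R15B (0.94) and ITFG1 (0.94). AKT2 was most like ZBTB8OS (0.92) and IMPACT (0.92), AKT1 like LOC483833 (0.82) and KANK3 (0.81), and RPTOR like the member RPS6KB1 (0.84) and DNPH1 (0.79). Without taking off the group means, r for these pairs ran from -0.16 (GSK3B with ZSCAN29) to 0.79, and PDPK1 with PDCD4 had 0.27. The genes named are those with the highest r once group means were taken off, and are given as a description. The values of PDPK1 and RPS6KB1 each average a bright probe set with a dimmer one. RPTOR was dim on most arrays, so low signals enter its r with RPS6KB1. AKT1, AKT2 and 4 of the 7 MTOR probe sets were also dim on most arrays, so low signals likewise enter the r of these genes.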

How the data were processed

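Per the labels and the methods of the study, RNA from 14 lymph node samples was extracted with the RNeasy Micro kit, amplified with WT-Ovation Pico and hybridised to GeneChip Canine Genome V2.0 arrays. The deposited values are MAS 5.0 signals that the authors scaled to a trimmed mean of 500 on each array. They are linear, and low signals carry an uncertain background. Of 43035 probe sets, 175 controls, 439 with several symbols and 13167 with none were left out.

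Signals were taken to log2 and averaged over the probe sets of a gene. A gene entered a comparison where its signal reached 100 on at least 3 of the arrays, and was tested with limma 3.58.1 in R 4.3.3 (lmFit, eBayes), with Benjamini-Hochberg adjustment over all genes tested and a threshold of 0.05 (for the methods' t-test also 0.2). The limma fit was tried on simulated data and the permutation test on a known case. Where nothing else is said, n counts dogs, and the 2 nodes of dog 3024 were averaged, except in the B-cell set, for which 3024r was taken. The alternative to that set with all B-cell lymphomas used the average of the 2 nodes. All 9 symbols matched RefSeq by gene identifier, and their sequences and coordinates were not used here. Genes named outside the members are those past the threshold, at most 4 a group. The members and lists were chosen with earlier results of these data known. The number of arrays limits the precision. Python 3.11.15 and matplotlib 3.10.9 drew the figures. Alternatives changed the filter, scaling, pseudocount, floor, gene summary, test and arrays.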

Additional observations from a re-analysis of the deposited data

Results flagged for a closer look

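One of 66 groups of values checked for a sample far from the others held one, and chance alone flags about 1 in 20 groups. It is RHEB among the 7 lymphomas labelled B-cell, where RB07 had a log2 signal of 10.02 and the next lowest array, RB10, had 10.72, a gap of 0.621 of the whole range. RB07 is one of the 2 arrays labelled B-cell with a T-cell profile.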

How the results depend on the processing

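No member was called in any comparison with normal dogs or between lymphoma types under any alternative run (24 for all lymphomas, 19 for the B-cell set and 20 for B-cell against T-cell), no member probe set under 3 alternatives, and no pair of probe sets with signals under 100 raised to 100. The direction of a member's difference was less stable. In all lymphomas it turned for PDPK1 (0.0373) under quantile normalization, for RICTOR (0.00197), PDPK1 (0.17) and RHEB (0.16) with arrays centred on the median, for AKT1 (0.0152) with signals raised to 100, for MTOR (-0.0732) with the brightest probe set, for MTOR (-0.0138) with 3024r alone, and for PDPK1 (0.00325) and RHEB (0.0343) with 3024l alone. In the B-cell set it turned for MTOR (0.0680) and RHEB (-0.11) under quantile normalization, for MTOR (0.0692), PDPK1 (0.10) and GSK3B (0.0547) with centring, for AKT2 (0.0142) with signals raised to 100, for AKT2 (0.71) and MTOR (0.31) with 3024l in place of 3024r, and for GSK3B (0.0387) and RHEB (-0.0499) with all 7 B-cell lymphomas. Between B-cell and T-cell lymphoma it turned for AKT2 (0.15) with signals raised to 100 and for RICTOR (0.0883) with the brightest probe set. The causes were not tested.

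With 1 dog left out at a time, the differences that turned ran in all lymphomas from -1.22 to 0.12 for AKT1, -0.12 to 0.51 for MTOR, -0.69 to 1.11 for RPTOR, -0.22 to 0.0503 for PDPK1 and -0.13 to 0.0305 for RHEB. In the B-cell set they ran from -0.0802 to 0.94 for AKT1, -1.14 to 0.0135 for AKT2, -0.49 to 0.0447 for MTOR, -0.10 to 0.76 for RPS6KB1 and -0.0934 to 0.0751 for RHEB, and in B-cell minus T-cell lymphoma from -0.39 to 0.32 for RICTOR and -0.0515 to 0.26 for RHEB.

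Centring moved the median of all genes by 0.24 in all lymphomas and 0.32 in the B-cell set, and quantile normalization by 0.09 and 0.12, so a member's difference of that size has no settled direction. The share of called genes that were lower was 71.6% in all lymphomas as deposited, 58.7% under quantile normalization and 53.4% with centring, and in the B-cell set it was 68.0%, 57.2% and 47.8%. The methods' t-test called 893 genes in all lymphomas and 8 in the B-cell set after Benjamini-Hochberg adjustment, against 341 and 902 in limma. The mean over bright probe sets and the comparison without RB07, RB10 and FS22 were added after seeing the data. No paired analysis was possible because the labels give replicate numbers only to the 2 nodes of 1 normal dog. The calls of DEPTOR, PRKAA2, RRAGD, LAMTOR2 and EIF4B were each lost under several settings, as given with their values. For AKT1, AKT2 and RPTOR, signals near background are the limit.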
